A study of Mus musculus with 16 samples.

Results

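The *Cyp3a* genes encode cytochromes P450 of the endoplasmic reticulum, haem enzymes that oxidise drugs, steroids and bile acids with electrons from NADPH-cytochrome P450 reductase. The 7 genes described here, *Cyp3a11*, *Cyp3a13*, *Cyp3a16*, *Cyp3a25*, *Cyp3a41a*, *Cyp3a44* and *Cyp3a59*, were chosen by gene symbol, and every array probe carrying one of these symbols was taken. Of the 25697 probes of the array, which name 16593 genes, 8 carried the symbols of 6 of the genes: 3 of *Cyp3a13* and 1 of each other gene. No probe carried the symbol *Cyp3a59*. Of these 8 probes, 5 were among the probes of highest mean that were kept for testing, as many as the methods kept: those of *Cyp3a11*, *Cyp3a25* and *Cyp3a13*. The probes of *Cyp3a16*, *Cyp3a41a* and *Cyp3a44* were too dim to be kept.

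RNA from 16 liver samples of inbred male mice, 8 of strain A/J and 8 of strain C57BL/6J, was hybridised to Illumina Mouse Ref 8 bead arrays. The mice were all fed the High Fat High Calorie (HFHC) diet, and the samples are labelled 8 weeks. The methods state mice from 8 wk of age, and livers taken after 8 wk of feeding. If feeding began at that age, the mice were older than 8 weeks at collection, and the label may give the time on the diet. No animals on another diet, no females and no engineered alleles were among them. The methods describe samples pooled from 2 mice, while the labels name 8 samples per strain and no pools, so the spread behind each *P* value is that between these samples and may in part be technical. Each value is a deposited, quantile normalized log2 signal, every array has a median of 8.01, and the number of arrays limits the precision. A probe was called when its adjusted *P* from limma was 0.05 or less and its fold change, 2 to the power of the log2 difference, was at least 1.5.

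In mouse liver, *Cyp3a11* is the main *Cyp3a* enzyme of drug metabolism and the standard target gene of the pregnane X receptor (PXR, gene *Nr1i2*), and the constitutive androstane receptor (CAR, gene *Nr1i3*) also acts on it. *Cyp3a16* is known from fetal and neonatal liver, and *Cyp3a41a* and *Cyp3a44* are expressed mainly in females. *Cyp3a13* is expressed in liver and intestine. Bulk RNA of a whole liver piece cannot tell fewer cells of a type from less RNA per cell.

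The letters of the probes on which the results rest are shown because the value of a gene is the signal of its probe. They were read from the deposited probe codes, all 25697 of which decoded with a correct checksum to 50 bases. *Cyp3a13* has 3 probes, called A, B and C here. Only the first 30 bases of probe A are given.
Cyp3a11 probe: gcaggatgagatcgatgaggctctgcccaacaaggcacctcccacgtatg
Cyp3a25 probe: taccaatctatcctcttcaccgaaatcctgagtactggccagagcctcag
Cyp3a13 probe A, first bases: ggttcttgtggggctgccgatgttcacttc
Cyp3a13 probe B: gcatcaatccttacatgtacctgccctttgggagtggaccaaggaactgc
Cyp3a13 probe C: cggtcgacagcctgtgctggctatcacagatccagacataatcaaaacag
The longest run of bases shared by any of the 28 pairs of *Cyp3a* probes was 12 bases, and the longest among the *Cyp3a13* probes was 5, so these 3 probes read different stretches. None of the 8 probes shared a run of 20 bases with any other probe on the array. Binding of a probe to transcripts of other *Cyp3a* genes, among them *Cyp3a59*, and sequence differences between the strains under a probe were not tested.

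All 7 genes lie on chromosome 5 of GRCm38 according to RefSeq. *Cyp3a13* lies alone, at 137892933 to 137925610. The other genes form a cluster 7.51 Mb away, in the order *Cyp3a16* (145436309 to 145469740), *Cyp3a41a* (145694049 to 145720136), *Cyp3a44* (145773983 to 145805891), *Cyp3a11* (145854607 to 145879854), *Cyp3a25* (145977192 to 146009644) and *Cyp3a59* (146079208 to 146114978). RefSeq lists 9 protein-coding *Cyp3a* genes, 2 of which are outside the 7.

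The strains differed in opposite directions at the 2 loci. On the HFHC diet, hepatic *Cyp3a11* and *Cyp3a25* of the cluster were higher in A/J, by 1.54-fold and 1.63-fold, while *Cyp3a13* was lower in A/J, by 2.47-fold and 2.59-fold on probes A and B. Probe C of *Cyp3a13* also had a lower mean in A/J, by 1.40-fold, which is under the fold threshold. Of the 5 kept *Cyp3a* probes 4 were called, against 4.86% of all kept probes. The called probes were 2 higher in A/J, against 1.91% of all kept probes, and 2 lower, against 2.96%. Both lower probes, and 3 of the 5 kept probes, are of *Cyp3a13*, so these are not counts of separate genes. By the brightest probe of each gene, all 3 genes with a kept probe were called, against 5.29% of all genes tested. *Cyp3a11* and *Cyp3a25* were higher, against 2.13% of genes, and *Cyp3a13* was lower, against 3.16%. The strains did not overlap on 3 of the 5 probes, against 8.51% of all kept probes. All 5 had an adjusted *P* of 0.05 or less at any fold, as did 26.5% of all kept probes.

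**Figure D1:**
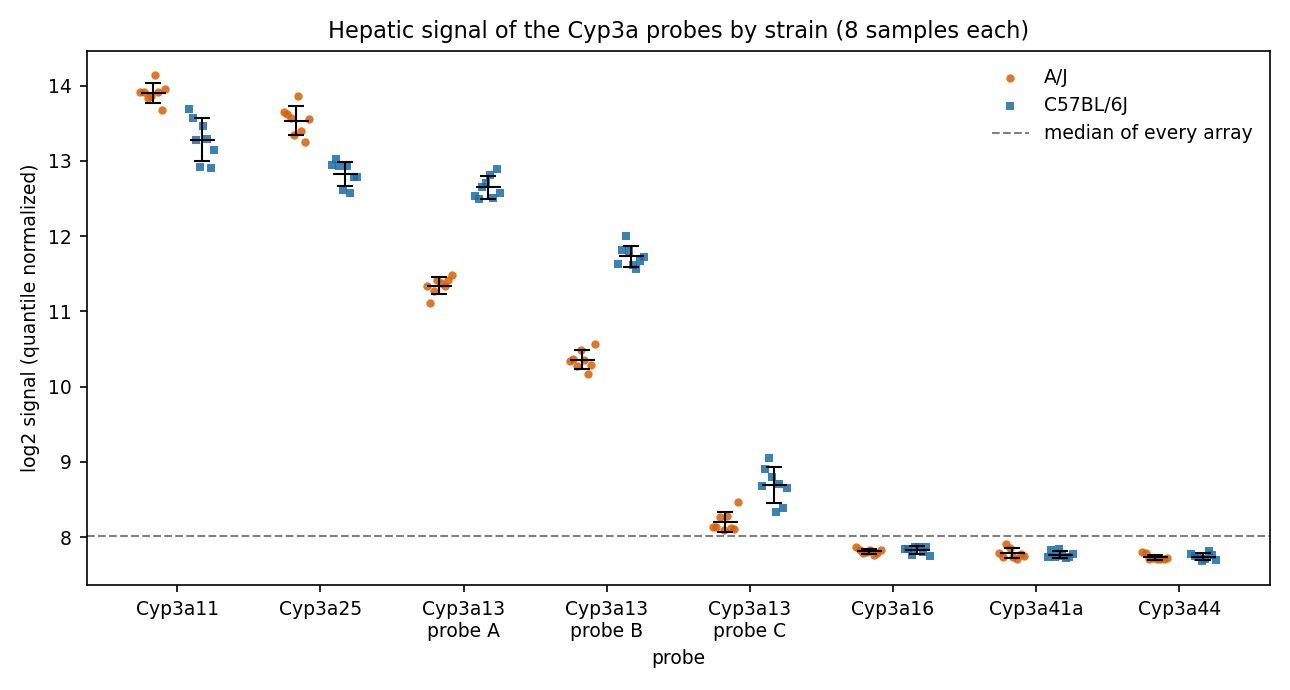
Log2 signal of the 8 *Cyp3a* probes in each of the 8 A/J (circles) and 8 C57BL/6J (squares) samples, with the mean and SD of each strain in black and the array median of 8.01 as a dashed line. *Cyp3a11* and *Cyp3a25* are higher in A/J, the *Cyp3a13* probes are lower in A/J, and *Cyp3a16*, *Cyp3a41a* and *Cyp3a44* lie below the line in all 16 samples.

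*Cyp3a11* was the brightest of the 8 probes and the 345th brightest of the whole array. In A/J its log2 signal ran from 13.68 through a median of 13.91 to 14.14, with a mean of 13.90 ± 0.129 (SD, n = 8). In C57BL/6J it ran from 12.91 through a median of 13.29 to 13.69, with a mean of 13.28 ± 0.286 (SD, n = 8). The strains overlapped only through A/J sample 7, the lowest of A/J, and C57BL/6J sample 1, the highest of C57BL/6J. The other 7 A/J samples lay above every C57BL/6J sample. The log2 difference was 0.62 (standard error 0.103, 95% interval 0.40 to 0.84, adjusted *P* = 0.000186 from limma). This is close to the fold threshold. Without C57BL/6J sample 4 or without C57BL/6J sample 7, the lowest samples of that strain, the difference was 0.57 in each case (adjusted *P* = 0.000355 and 0.000292 from limma) and the gene was no longer called.

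*Cyp3a25*, whose product is a testosterone-hydroxylating enzyme of liver in mice, lies next to *Cyp3a11* in the cluster. Its log2 signal in A/J ran from 13.25 through a median of 13.56 to 13.86, with a mean of 13.53 ± 0.194 (SD, n = 8). In C57BL/6J it ran from 12.57 through 12.86 to 13.02, with a mean of 12.82 ± 0.163 (SD, n = 8). Every A/J sample was above every C57BL/6J sample. The log2 difference was 0.71 (standard error 0.0845, 95% interval 0.53 to 0.89, adjusted *P* = 4.73e-06 from limma).

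The sizes of the changes in both genes were close. The log2 signal of *Cyp3a11* minus that of *Cyp3a25* in the same sample was 0.37 ± 0.109 (SD, n = 8) for A/J and 0.46 ± 0.215 (SD, n = 8) for C57BL/6J. The change of -0.09 was not distinguishable from 0 (exact permutation test, two-sided, *P* = 0.312), and its 95% interval from the same test ran from -0.27 to 0.10. This comparison was added after the values had been seen.

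Within a strain, samples high in *Cyp3a11* tended to be high in *Cyp3a25*, but no correlation passed after adjustment. In A/J, *r* was 0.85 (exact permutation *P* = 0.0105, adjusted 0.210) and Spearman's rho 0.56 (exact permutation *P* = 0.155, adjusted 0.489), and *r* was 0.30 without the 2 samples farthest from the median of *Cyp3a11*. Leaving out the extremes of *Cyp3a11* also narrows its range, which can itself lower *r*. How far the relation in A/J rests on those 2 samples was therefore not settled. In C57BL/6J, *r* was 0.66 (exact permutation *P* = 0.0769, adjusted 0.513), rho was 0.67 (exact permutation *P* = 0.0831, adjusted 0.465) and *r* was 0.73 without the 2 farthest samples. These are 2 of 20 such correlations among the 5 kept probes, 10 in each strain. None had an adjusted *P* of 0.05 or less by the exact permutation test, and 2 had an unadjusted *P* of 0.05 or less.

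**Figure D2:**
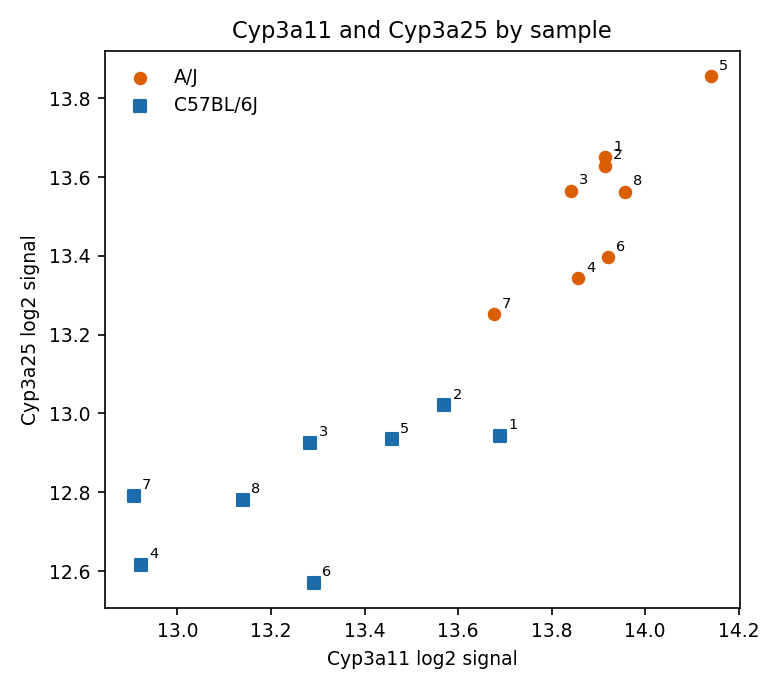
Log2 signal of *Cyp3a11* (horizontal axis) against that of *Cyp3a25* (vertical axis) in each A/J (circle) and C57BL/6J (square) sample, labelled with its sample number. The A/J samples lie between 13.68 and 14.14 on the horizontal axis and between 13.25 and 13.86 on the vertical axis, the C57BL/6J samples between 12.91 and 13.69 and between 12.57 and 13.02.

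Among the 8 probes, *Cyp3a13* probes A and B had the largest strain differences. Probe A, the brightest probe of *Cyp3a13*, had a log2 signal from 11.11 through a median of 11.36 to 11.48 in A/J, with a mean of 11.34 ± 0.115 (SD, n = 8). In C57BL/6J it ran from 12.49 through 12.62 to 12.90, with a mean of 12.65 ± 0.149 (SD, n = 8). The highest A/J sample was below the lowest C57BL/6J sample by more than the SD of either strain. The log2 difference was -1.30 (standard error 0.0649, adjusted *P* = 4.66e-11 from limma).

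Probe B of *Cyp3a13* gave a second reading of the same gene. Its log2 signal in A/J ran from 10.17 through 10.35 to 10.56, with a mean of 10.36 ± 0.124 (SD, n = 8). In C57BL/6J it ran from 11.57 through 11.70 to 12.01, with a mean of 11.73 ± 0.142 (SD, n = 8). The strains did not overlap on this probe either, and the log2 difference was -1.37 (standard error 0.0649, adjusted *P* = 2.31e-11 from limma).

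Probe C of *Cyp3a13* was dim, near the array median of 8.01. Its log2 signal in A/J ran from 8.10 through 8.14 to 8.47, with a mean of 8.20 ± 0.129 (SD, n = 8), and in C57BL/6J from 8.34 through 8.70 to 9.06, with a mean of 8.69 ± 0.242 (SD, n = 8). A/J sample 8 overlapped C57BL/6J samples 5 and 7, and the other 7 A/J samples lay below every C57BL/6J sample. The log2 difference was -0.49 (standard error 0.0909, adjusted *P* = 0.000524 from limma), past the adjusted *P* and short of the fold threshold.

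The 3 probes of *Cyp3a13* were compared within each sample, where the array is shared. Probe A minus probe B was 0.99 ± 0.133 (SD, n = 8) for A/J and 0.92 ± 0.208 (SD, n = 8) for C57BL/6J. The change of 0.07 had a 95% interval from -0.12 to 0.26 (exact permutation test, two-sided, *P* = 0.432, also 0.432 after Benjamini-Hochberg adjustment over the 3 pairs). The strain differences of probes A and B were thus not distinguishable at this spread. Probe A minus probe C was 3.14 ± 0.135 (SD, n = 8) for A/J and 3.96 ± 0.354 (SD, n = 8) for C57BL/6J, a change of -0.81 (95% interval -1.10 to -0.54). Probe B minus probe C was 2.16 ± 0.125 (SD, n = 8) and 3.04 ± 0.164 (SD, n = 8), respectively, a change of -0.88 (95% interval -1.04 to -0.73). Both changes had an exact permutation *P* of 0.0001554, the smallest that 8 against 8 samples can give (adjusted 0.000233), and neither pair's strains overlapped.

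The fold change of probe C was therefore smaller than that of probes A and B. Its signal also lies closer to the bottom of the scale, where the lowest value in the table is 7.61. When that lowest value was subtracted on the linear scale, which was added after the values had been seen, the log2 differences were -1.37 for probe A, -1.52 for probe B and -1.13 for probe C. These correspond to 2.59-fold, 2.87-fold and 2.19-fold lower signals in A/J. Whether the smaller change of probe C comes from its low signal was not tested.

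**Figure D3:**
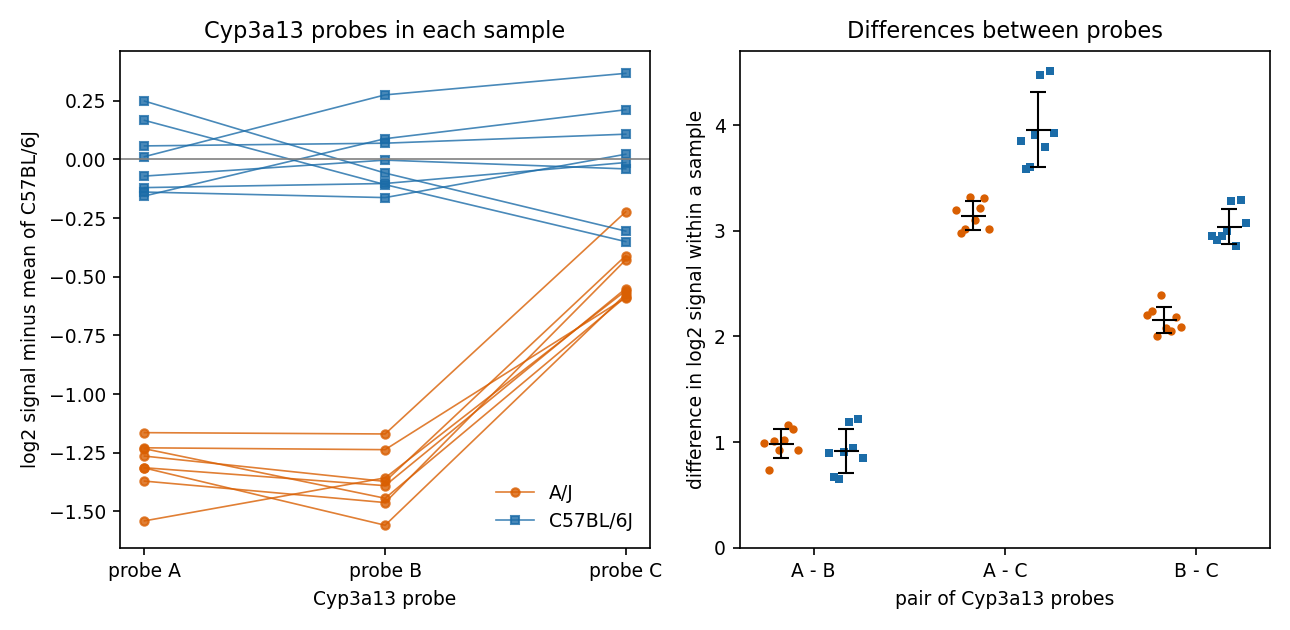
Left, log2 signal of *Cyp3a13* probes A, B and C in each sample minus the C57BL/6J mean of that probe, with lines joining the probes of 1 sample (A/J circles, C57BL/6J squares). Right, difference in log2 signal between pairs of probes within a sample, with the mean and SD of each strain in black; A minus B overlaps between the strains, while A minus C and B minus C do not.

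Samples that deviated from their strain mean on one probe of *Cyp3a13* did not all deviate on another. Within A/J, *r* was 0.38 between probes A and B, and within C57BL/6J it was -0.03 (exact permutation *P* = 0.355 and 0.956, adjusted 0.710 and 0.971; rho 0.55 and -0.05). Probes B and C gave an *r* of 0.51 in A/J and 0.75 in C57BL/6J (exact permutation *P* = 0.197 and 0.0318, adjusted 0.658 and 0.318; rho 0.21 and 0.69). Probes A and C gave 0.39 and -0.61 (exact permutation *P* = 0.329 and 0.107, adjusted 0.710 and 0.535; rho 0.02 and -0.52). Without the 2 samples farthest from the median, B with C fell to -0.27 in A/J and 0.48 in C57BL/6J, and A with B rose to 0.57 and 0.59. Spreads within a strain were small beside the strain differences of probes A and B.

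The other *Cyp3a* probes were dim in both strains. The mean log2 signal of *Cyp3a16* was 7.81 ± 0.0340 (SD, n = 8) for A/J and 7.83 ± 0.0497 (SD, n = 8) for C57BL/6J. *Cyp3a41a* was at 7.79 ± 0.0668 (SD, n = 8) and 7.77 ± 0.0460 (SD, n = 8), and *Cyp3a44* at 7.73 ± 0.0352 (SD, n = 8) and 7.74 ± 0.0425 (SD, n = 8), respectively. All 16 samples were below the array median on each of these 3 probes. In a fit over all 25697 probes, the log2 differences of these 3 genes were -0.02, 0.02 and -0.01 (adjusted *P* = 0.786, 0.802 and 0.908 from limma). At such signals a strain difference was not detectable, and detection *P* values were not used here.

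The mean log2 signal of 17 hepatocyte markers was 13.57 to 13.63 in A/J samples 1 to 4 and 13.76 to 13.79 in A/J samples 5 to 8, and 13.53 to 13.63 and 13.72 to 13.84 in the corresponding C57BL/6J samples, so the *Cyp3a* probes were also compared within each set. *Cyp3a25* differed by 0.67 among samples 1 to 4 and by 0.75 among samples 5 to 8 (adjusted *P* = 0.00106 and 0.00329 from limma). *Cyp3a13* probe A differed by -1.31 and -1.30, and probe B by -1.44 and -1.30, respectively. *Cyp3a11* differed by 0.51 among samples 1 to 4, where it was not called, and by 0.73 among samples 5 to 8 (adjusted *P* = 0.0294 and 0.00403 from limma). *Cyp3a13* probe C differed by -0.70 among samples 1 to 4, where it was called, and by -0.28 among samples 5 to 8 (adjusted *P* = 0.000231 and 0.111 from limma). Every direction was the same in both sets for these 5 probes, and whether the sets differ from each other was not tested.

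The samples were of liver by their markers, and a few carried pancreas transcripts. The hepatocyte marker mean had a median of 13.69 in A/J and 13.67 in C57BL/6J. Averaged over 18 exocrine pancreas markers, the log2 signal reached 12.44 in C57BL/6J sample 7 and was also raised in A/J samples 4 and 7, at 10.67 and 10.52, while the remaining 13 samples lay at 8.09 to 8.80. C57BL/6J sample 7 and A/J sample 7 were also the samples with the lowest *Cyp3a11* signal of their strains. A/J samples 7 and 4 were the lowest of A/J on *Cyp3a25*, at 13.25 and 13.34, and A/J sample 4 on *Cyp3a13* probe C, at 8.10. C57BL/6J sample 7 was the highest of its strain on *Cyp3a13* probe A, at 12.90. On probe B, none of the 3 samples with raised pancreas markers was at either end of its strain. Without these 3 samples, the log2 difference was 0.61 for *Cyp3a11*, 0.78 for *Cyp3a25*, and -1.29, -1.39 and -0.50 for *Cyp3a13* probes A, B and C (adjusted *P* of at most 0.00162 from limma), and 4 of the 5 probes were called as before. The mean of 12 periportal hepatocyte markers was 11.69 to 12.10 in A/J and 12.05 to 12.41 in C57BL/6J, while that of 14 pericentral markers was 11.64 to 11.81 and 11.56 to 11.94. The part of these marker levels in the *Cyp3a* differences was not tested.

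Upstream regions are shown for the 3 genes with kept probes. They are RefSeq sequence of the GRCm38.p6 reference, 180 bases before the transcript start, and all 7 genes had an entry. Capitals mark AGGTCA or AGTTCA or their reverse complements, the hexamers that nuclear receptors bind, and TTGTGCAA, a match to the C/EBP motif. The *Cyp3a13* window belongs to the transcript start that the table gives, which lies inside the outer limit of the gene.
Cyp3a11, chr5:145879855-145880034, minus strand: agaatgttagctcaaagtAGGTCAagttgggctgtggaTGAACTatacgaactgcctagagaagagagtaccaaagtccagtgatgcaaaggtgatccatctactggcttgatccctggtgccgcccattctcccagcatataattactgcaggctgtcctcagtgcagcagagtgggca
Cyp3a25, chr5:146009619-146009798, minus strand: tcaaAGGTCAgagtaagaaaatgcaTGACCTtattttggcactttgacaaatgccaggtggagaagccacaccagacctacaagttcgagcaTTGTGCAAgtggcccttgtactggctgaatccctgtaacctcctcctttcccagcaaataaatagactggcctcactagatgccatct
Cyp3a13, chr5:137921620-137921799, minus strand: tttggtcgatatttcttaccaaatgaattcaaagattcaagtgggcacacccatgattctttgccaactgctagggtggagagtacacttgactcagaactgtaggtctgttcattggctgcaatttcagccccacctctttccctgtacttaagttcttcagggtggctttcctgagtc

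*Cyp3a11*, *Cyp3a25* and *Cyp3a59*, which has no probe, hold 2 of them each, *Cyp3a41a* and *Cyp3a44*, which were dim in both strains, hold 1 each, and *Cyp3a13* and *Cyp3a16* hold none. In *Cyp3a11* they lie at positions -162 to -157 and -142 to -137 from the transcript start, and in *Cyp3a25* at -176 to -171 and -155 to -150. Over 250 upstream bases and both strands, AGGTCA or AGTTCA occurred in 5 of the 7 promoters and in 24.2% of 32851 mouse promoters. The C/EBP motif, TTNNGCAA, occurred in 1 of the 7, *Cyp3a25* at -88 to -81, and in 9.56% of all promoters. TATAAA occurred in 4 of the 7, against 12.4%, and the STAT motif TTCNNNGAA in none, against 7.02%. In all 4 the TATAAA match ended at position -117 or farther upstream. Some of the 7 promoters are nearly identical, as given below, so these counts repeat the same sites and are not of independent promoters. Of paired arrangements, only an everted repeat by the name ER6 and a direct repeat by the name DR3 were searched. Both are built from AGNTCA, with N any base, which covers the hexamers above and other letters. ER6 (0.0304% of promoters) and DR3 (0.0517%) occurred in none of the 7 windows. Pairs with other spacings, in *Cyp3a11* or elsewhere, were not searched. A match describes letters and not binding, and the A/J sequence of these windows was not analysed here.

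In global alignments of the 250 upstream bases, *Cyp3a25* and *Cyp3a59* shared 95.2% of bases, and *Cyp3a16*, *Cyp3a41a* and *Cyp3a44* shared 92.8% to 94.4% with each other. *Cyp3a11* shared 76.8% to 80.0% with those 3 genes and 65.2% with *Cyp3a25*. *Cyp3a13* shared 61.6% to 65.2% with the others. The promoters of *Cyp3a11* and *Cyp3a25* were thus not the most alike. Every pair more alike than these holds a gene with a dim probe or, for *Cyp3a59*, no probe. Likeness of promoters could therefore not be set beside the strain differences.

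Of all genes tested, 5.29% were called, and regulators of the *Cyp3a* genes are given beside that share. The mean log2 signal of *Nr1i2*, the gene of PXR, was 10.61 ± 0.145 (SD, n = 8) for A/J and 10.63 ± 0.118 (SD, n = 8) for C57BL/6J, which differ by -0.02 (adjusted *P* = 0.840 from limma). *Nr1i3*, the gene of CAR, differed by 0.05 (adjusted *P* = 0.742 from limma). Of 12 tested genes of xenobiotic receptors and their partners, 1 was higher and none lower (8.33%), with a median log2 difference of 0.05, and 3 were higher and 1 lower at an adjusted *P* of 0.05 or less at any fold, as were 28.1% of all genes in either direction. All 9052 genes tested had a median of 0.01, with 2.13% called higher and 3.16% lower. The called gene was *Ppargc1a*, which encodes the coactivator PGC-1α, with means of 9.29 ± 0.163 (SD, n = 8) for A/J and 8.51 ± 0.222 (SD, n = 8) for C57BL/6J and a log2 difference of 0.77 (adjusted *P* = 4.17e-06 from limma). *Ppara*, a receptor for fatty acids, differed by 0.48, *Rxra*, the shared partner of these receptors, by 0.25 and *Nr1h4*, the bile acid receptor FXR, by -0.35 (adjusted *P* = 0.000638, 0.0157 and 0.00598 from limma), all under the fold threshold.

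Among 12 hepatocyte transcription factors 1 was higher in A/J (8.33%, against 5.29% of all genes called), *Nr5a2*, which encodes the nuclear receptor LRH-1, by a log2 difference of 0.61 (adjusted *P* = 3.54e-05 from limma), and none was lower. *Hnf4a*, a nuclear receptor needed for hepatocyte gene expression, differed by 0.06 (adjusted *P* = 0.760 from limma). Among 8 genes of the growth hormone axis 1 was lower and none higher (12.5%), *Bcl6*, a repressor gene, at -1.37 (adjusted *P* = 0.0188 from limma), with SDs of 0.691 in A/J and 1.08 in C57BL/6J. Of 12 genes of electron transfer and haem supply, 1 was higher and 1 lower (16.7%). These are 1 or 2 genes a list, and no list was tested against the other genes. *Alas1*, the first enzyme of haem synthesis, was lower by a log2 difference of -1.03 (adjusted *P* = 0.0142 from limma), and *Alad*, the enzyme of the next step, was higher by 0.84 (adjusted *P* = 5.64e-08 from limma). *Cyb5a*, cytochrome b5, differed by -0.15 (adjusted *P* = 0.419 from limma).

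A list of other genes taken as responsive to PXR and CAR held genes called in both directions. Of 25 tested, 4 were higher and 5 lower, which is 36.0% of them against 5.29% of all genes, and their median log2 difference was -0.07. *Cyp2c39*, *Cyp2b9* and *Cyp2b13* were higher, by 4.26, 3.18 and 2.92, and *Cyp2c29* was lower, at -2.60 (adjusted *P* from 4.13e-17 for *Cyp2c39* to 0.000879 for *Cyp2b9*, limma). *Cyp2b9* varied widely in C57BL/6J, from 7.99 to 12.31 (SD 1.93), and ran from 12.82 to 13.65 in A/J (SD 0.280). The SDs of *Cyp2c29* were 0.599 in A/J and 1.11 in C57BL/6J. *Cyp2b10*, the standard target gene of CAR in mouse liver, was lower, at -0.90 (adjusted *P* = 0.00346 from limma), while *Cyp3a11* was higher. The list holds many cytochromes P450, and of 28 tested P450 genes of families 1 and 2, 6 were higher and 3 lower (32.1%). *Cyp2c39*, *Cyp2b9*, *Cyp2b13*, *Cyp2c29* and *Cyp2b10* are counted in both lists, so these are not separate results. *Cyp2b9* and *Cyp2b13* are also on the list of female-biased genes given below. Whether PXR or CAR acts on the listed genes in these livers was not tested.

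Genes next to the *Cyp3a* loci were not called. Of 56 tested genes within 1 Mb of the members, none passed both thresholds, and 12 were higher and 2 lower at an adjusted *P* of 0.05 or less at any fold, which is 25.0% against 28.1% of all genes. Around *Cyp3a13*, 7 of 40 genes were higher and 2 lower at any fold, with log2 differences from -0.42 in *Trim56* to 0.48 in *Agfg2* (adjusted *P* = 2.13e-05 and 0.00953 from limma). Around the cluster, 5 of 16 were higher and none lower, with the largest log2 difference, 0.56, in *Gtf3a*, a factor for ribosomal RNA transcription, and with 0.36 in *Rnf6* (adjusted *P* = 0.000190 and 0.000136 from limma). The difference of *Gtf3a* lies just under the fold threshold.

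**Figure D4:**
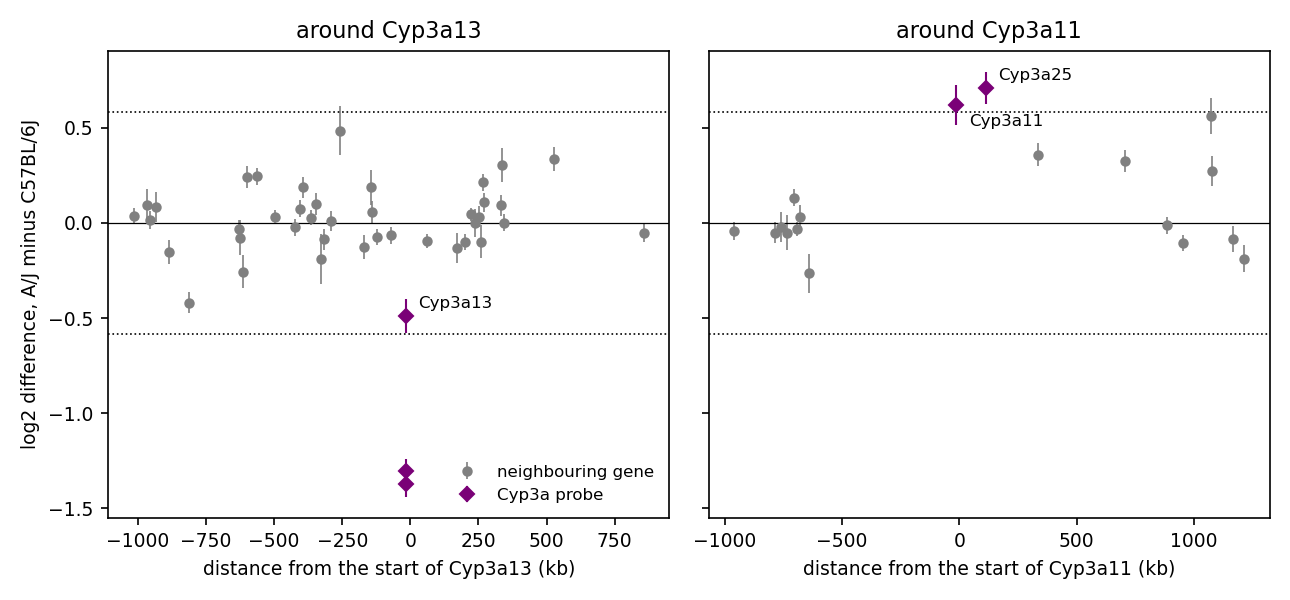
Log2 difference (A/J minus C57BL/6J) of the kept *Cyp3a* probes (diamonds) and of neighbouring genes (grey circles) against distance in kb from the start of *Cyp3a13* (left) and of *Cyp3a11* (right), with standard errors as bars and the 1.5-fold threshold as dotted lines. *Cyp3a13* probes A and B, *Cyp3a11* and *Cyp3a25* lie past the threshold, and all 56 neighbouring genes lie inside it.

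The genes that varied most like each called member within the strains were found from deviations from the strain means over all 16 samples, as a description over samples that share arrays. They are extremes picked from 13059 other kept probes, and their *r* was not tested against what such a search gives by chance. For *Cyp3a11* they were *Chchd6* (*r* = 0.83), *Gnpda1* (0.81) and *Acadl* (0.81), and the most opposite was *Lsm14a* (-0.86). For *Cyp3a25* they were *Lyplal1* (0.84), *Echdc1* (0.84) and *Tbc1d20* (0.82), with *Smarce1* most opposite (-0.83). *Cyp3a25* itself stood at 0.66 with *Cyp3a11*, where 138 of 13059 other kept probes were higher. For *Cyp3a13* probe A they were *Gimap9* (0.83), *Lima1* (0.82) and *Zfp644* (0.82), with *Med4* most opposite (-0.95), and for probe B *Trappc3* (0.90), *Rcl1* (0.81) and *Nupl1* (0.79), with *Actb* most opposite (-0.78). Of the 100 probes of highest *r* with each, *Cyp3a11* and *Cyp3a25* shared 13, and probes A and B of *Cyp3a13* shared none, although they read 1 gene.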

How the data were processed

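The authors read the scans with BeadStudio and applied lumi's quantile normalization, with versions not given in the sources used here. What they deposited is 1 log2 value for each of 25697 probes and 16 samples, and all were used. No source says whether this log2 is a variance-stabilized scale. A second table gave probe sequences. The probe table named 23978 probes, and 23962 were matched to RefSeq by Entrez ID. Depth has no meaning for arrays, and quantile normalization makes array totals equal. No 2 columns were identical.

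The strain term came from limma (version 3.58.1, R 4.3.3; lmFit and eBayes with 14 residual and 3.11 prior degrees of freedom), with Benjamini-Hochberg adjustment over the probes of highest mean (lowest 8.00), as many as the methods kept. The brightest kept probe stood for a gene in the lists, the neighbourhoods and the counts of genes. Likeness was ranked over all kept probes instead. There the probes of *Gnpda1*, *Acadl*, *Lyplal1*, *Nupl1* and *Actb* were not the brightest of their genes. Exact permutation tests were two-sided over all regroupings of the 16 samples, and their intervals hold the shifts that the test does not reject. Python 3.11.15, pandas 2.3.3, numpy 2.4.6, scipy 1.17.1, Biopython 1.88 and matplotlib 3.10.9 were used. The fit was tested on simulated data.

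The members, gene lists and tests were chosen with earlier results of these data known. Named were all member probes, up to 4 called genes per list with the largest differences, the 3 genes most like and 1 most unlike each called member, and called neighbours. *Nr1i2*, *Nr1i3*, *Ppara*, *Rxra*, *Nr1h4*, *Hnf4a*, *Cyb5a*, *Cyp2b10*, *Trim56*, *Agfg2*, *Gtf3a*, *Rnf6*, *Hao2* and *Apoa1* were named after their values were seen. Sample numbers were checked for pairing and not taken as pairs. Alternatives were other filters, normalizations, variance models, weights, blocks, thresholds, scales and left-out samples.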

Additional observations from a re-analysis of the deposited data

Results flagged for a closer look

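Of 102 groups of 8 samples examined, over the probes and genes named here, 3 held a sample far from the other 7 by Dixon's test. Chance gives about 1 in 20, so 3 of 102 is no more than chance gives. *Cela1*, a pancreatic elastase gene, was at a log2 signal of 13.34 in C57BL/6J sample 7, against 10.19 to 11.56 in the other C57BL/6J samples. *Zfp644* was at 9.89 in the same sample, against 9.33 to 9.53. That sample was also the highest of C57BL/6J on *Cyp3a13* probe A, at 12.90. *Lsm14a* was at 9.89 in A/J sample 5, whereas the remaining A/J samples lay at 10.01 to 10.10. A/J sample 5 was also the highest of A/J on *Cyp3a11*, at 14.14. How far the *r* of *Zfp644* with probe A and of *Lsm14a* with *Cyp3a11* rests on these samples was not tested. Both genes were named for that *r*, so the shared samples are not separate results. No *Cyp3a* probe had such a sample in either strain.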

How the results depend on the processing

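The directions of all 5 kept *Cyp3a* probes were the same under every alternative that gave a value (probe C was not among the 8000 brightest probes). With each sample left out in turn, the log2 difference was 0.57 to 0.68 for *Cyp3a11*, 0.66 to 0.75 for *Cyp3a25*, and -1.33 to -1.27, -1.40 to -1.33 and -0.54 to -0.44 for *Cyp3a13* probes A, B and C, with 3 to 4 *Cyp3a* probes called, 616 to 651 probes called in all, 33 to 37 list genes called and 0 to 1 neighbouring genes called (1 without A/J sample 1, A/J sample 5 or C57BL/6J sample 2). At a 2-fold threshold 2 *Cyp3a* probes (*Cyp3a13* A and B), 242 probes in all and 16 list genes were called, and with no fold threshold 5, 3459 and 71, against 4, 635 and 35. Neighbouring genes called were 14 with no fold threshold and 2 among sample numbers 5 to 8 alone; the cause of the latter was not tested. Deviations of same-numbered samples of both strains correlated at -0.01 to 0.54, above 0.1 for 6 of 8 numbers and below it for 2, and the labels tie no number to a shared litter or day, so the numbers were not taken as pairs; with the sample number as a replicate block 641 probes, 4 *Cyp3a* probes, 39 list genes and 0 neighbouring genes were called, and no call of a *Cyp3a* probe changed. The *r* of *Cyp3a11* with *Cyp3a25* was 0.58 to 0.74 over all alternatives. On the ratio scale in place of the log2 difference, the changes between strains were -7.09 for probe A over C and -3.80 for B over C. Signals near the bottom of the scale limit what *Cyp3a16*, *Cyp3a41a*, *Cyp3a44* and probe C can show.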

Other observations

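Sex-biased genes of liver, which in mice include *Cyp3a41a* and *Cyp3a44*, were examined beside the *Cyp3a* probes in these males. Of all 9052 genes tested, 2.13% were called higher in A/J and 3.16% lower. Of 23 listed female-biased genes 15 had a probe, and 9 were kept by their mean over both strains and tested. Of these 9, 4 were higher and 1 lower (55.6% in all), with a median log2 difference of 0.40. A dim gene could be kept through the strain where it is high. *Hao2* was such a gene, with means of 8.56 in A/J and 7.90 in C57BL/6J. The filter may therefore raise this share and move this median. The largest of the higher genes were *Cyp2b9* at 3.18 and *Cyp2b13* at 2.92 (adjusted *P* = 0.000879 and 2.47e-07 from limma). Both are also counted above among the genes listed as responsive to PXR and CAR and among the P450 genes. The other higher genes were *Cyp7a1*, the rate-limiting enzyme of bile acid synthesis, at 1.10, and *Hao2* at 0.67. The lower gene was *Cyp17a1*, a steroid hydroxylase, at -1.34 (adjusted *P* = 0.00131, 0.0113 and 0.000287 from limma). Of 24 male-biased genes 1 was higher and 5 lower (25.0% in all), with a median of -0.12. The lower genes included *Cyp4a12b* at -2.85, *Selenbp2* at -1.79, *C6*, a complement component, at -1.20 and *Elovl3*, a fatty acid elongase, at -0.93 (adjusted *P* from 2.20e-06 to 0.00122 from limma). The female-predominant *Cyp3a41a* and *Cyp3a44* stayed below the array median in every sample of both strains.

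Of all genes tested 5.29% were called, and the marker lists were not tested against them. Of zonation markers, *Cyp1a2*, a pericentral P450, was higher in A/J by 0.79, the only called gene of 14 pericentral markers (7.14%), and *Hal*, histidine ammonia-lyase, was lower at -0.86, 1 of 2 periportal genes called of 12, or 16.7% (adjusted *P* = 0.000531 and 8.26e-05 from limma). Of 17 hepatocyte markers, *Serpinc1*, antithrombin, was higher by 0.68 (adjusted *P* = 4.62e-06 from limma) and the others were not called (5.88% called), among them *Apoa1*, apolipoprotein A-I, at 0.06 (adjusted *P* = 0.305 from limma). Of 18 exocrine pancreas markers 1 was called (5.56%), *Cela1*, higher in A/J by 1.25 (adjusted *P* = 0.0105 from limma). Among 11 macrophage markers 1 was higher and 1 lower, among 9 endothelial markers 1 and 1, among 2 enterocyte markers 0 and 1, and among 3 bile duct and 8 stellate cell markers none was called.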
